A study of Mus musculus with 14 samples.

Results

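The 7 genes of the Fos and Jun families, whose proteins pair to form the transcription factor AP-1, were followed in scratched mouse fibroblasts with and without autologous micrograft (AMG). They were chosen by gene symbol, and Fos, Fosb, Fosl1, Fosl2, Jun, Junb and Jund were all found among the 43472 genes listed in both deposited tables. Primary fibroblasts were grown from tail tips of C57BL/6 mice as a monolayer and scratched in all groups. Untreated cells received no AMG, and AMG-treated cells received a filtered, cell-depleted extract of disrupted mouse skin in growth medium. The 14 RNA libraries comprise replicate 1 of both groups at 1, 5, 12 and 24 h and replicates 2, 3 and 4 at 5 h only. The culture is a model of a wound without epidermis, vessels or blood, and the labels do not say how many animals or extracts stood behind a replicate.

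AP-1 is a dimer that binds DNA through a basic stretch and holds together through a leucine zipper. Jun proteins can pair with each other, whereas Fos proteins need a Jun partner, so the mixture of family members decides which dimers can form. Fos, Fosb, Jun and Junb are classical immediate early genes, switched on within minutes by growth factors and injury. Fosl1, which encodes Fra-1, and Fosl2, which encodes Fra-2, usually follow later and last longer, and Jund is the member that is commonly present in resting cells. In skin, AP-1 is known for its part in cell migration and for driving matrix metalloproteinases and cytokines in wounds. The study asked whether AP-1 carries the response of fibroblasts to AMG.

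The 7 genes share their DNA-binding motif, which is shown first because reads have to tell such related genes apart. For each gene the 60 coding bases around the motif are given 5′ to 3′ on the coding strand (GENCODE M21, build GRCm38), and capitals mark the 27 bases that encode the motif.
Fos: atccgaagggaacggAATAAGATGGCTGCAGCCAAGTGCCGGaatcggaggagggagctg
Fosb: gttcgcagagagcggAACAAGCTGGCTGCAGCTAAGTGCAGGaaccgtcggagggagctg
Fosl1: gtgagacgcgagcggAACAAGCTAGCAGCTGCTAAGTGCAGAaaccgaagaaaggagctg
Fosl2: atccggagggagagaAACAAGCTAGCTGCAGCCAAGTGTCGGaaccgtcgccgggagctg
Jun: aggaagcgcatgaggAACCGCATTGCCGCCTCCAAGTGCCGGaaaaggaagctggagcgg
Junb: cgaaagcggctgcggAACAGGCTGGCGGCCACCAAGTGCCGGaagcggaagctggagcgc
Jund: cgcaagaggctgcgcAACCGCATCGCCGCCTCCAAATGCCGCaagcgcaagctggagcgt
These stretches lie at chr12:85475622-85475681 for Fos (plus strand), chr7:19306577-19306636 for Fosb (minus), chr19:5454443-5454502 for Fosl1 (plus), chr5:32150451-32150510 for Fosl2 (plus), chr4:95050435-95050494 for Jun (minus), chr8:84977563-84977622 for Junb (minus) and chr8:70699856-70699915 for Jund (plus). For each gene the transcript with the longest coding sequence was used. In those of the 4 Fos-type genes the stretch lies in exon 3 of 4. Those of the 3 Jun-type genes have a single exon. Pairs of Fos-type genes were identical at 41 to 48 of the 60 bases, pairs of Jun-type genes at 46 to 47, and mixed pairs at 30 to 38. The longest identical run in any pair was 14 bases, well under the read length of 50 bases, and over their whole exons no member shared a 50-base word with another member.

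The promoter of Jun held the only match to the AP-1 and serum response motifs that were searched. The motifs were TGACTCA (the TRE bound by Fos-Jun dimers), TGACGTCA (the CRE), TGACATCA (the Jun-type TRE) and the CArG box of serum response factor. Both strands were searched over the 250 bases before each gene start, taken from RefSeq windows (GRCm38.p6). Bases further upstream and those after the start were not searched. A window was found for 6 of the 7 members, all except Fosl1. The 60 bases of the Jun promoter around the match, at chr4:95052234-95052293 and read on the minus strand like the gene, are shown with the motif in capitals.
Jun promoter: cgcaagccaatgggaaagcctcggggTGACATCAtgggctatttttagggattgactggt
The motif began 45 bases before the gene start. Of 32851 such windows, searched over the same 250 bases, 2.93% held TGACATCA, 4.46% held TGACTCA, 1.55% held TGACGTCA and 1.47% held a CArG box. These matches describe the letters only.

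Between 12545537 and 34696529 reads per library fell on genes, and 16687 to 18718 genes had at least 1 read. The members had between 32 and 15235 reads per library, with Fos and Fosb the lowest. Levels are normalised counts, which are reads divided by a size factor of the library, and the tables of replicate 1 and of replicates 2 to 4 were scaled separately. Fibroblast markers such as Col1a1 and Vim were present (10 of 10 with a mean of at least 10), and red blood cell genes did not reach that mean (0 of 5). Of 10 keratinocyte markers, 3 reached it in replicate 1 and 3 in replicates 2 to 4, where these were Krt10, Trp63 and Dsp. The keratins Krt5, Krt14 and Krt1 were at or near 0. Of 10 leukocyte markers, 6 reached it in replicate 1 and 5 in replicates 2 to 4. Keratinocyte markers summed to 156 to 316 normalised counts in untreated and 92.6 to 150 in treated replicates 2 to 4. Of 10 fibroblast markers, 6 passed as lower with AMG and 1 as higher in the blocked limma fit described next. In that fit 19.3% of all genes tested passed as lower and 17.9% as higher. Without the block, 0 of the 10 fibroblast markers passed. Leukocyte markers summed to 239 to 1519 in the untreated and 519 to 1805 in the treated libraries of replicates 2 to 4, and the part of these marker levels in the results was not tested. Untreated 5h replicate 1 and AMG-treated 1h replicate 1 stood apart, with 6.91% and 5.03% of reads in 83 ribosomal protein genes against 2.24% to 3.43% in the other 12 libraries. The log2 ratio of treated to untreated followed exon length across genes. In replicate 1 the Spearman correlation was -0.43 for the 1 h pair and 0.42 for the 5 h pair, and in replicates 2 to 4 it lay between -0.39 and -0.21. The treated to untreated ratios of the members in replicate 1 at 1 and 5 h are therefore given with and without a correction for length.

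At 5 h, Fosl1 was the member that passed as higher with AMG in limma without pairing, while DESeq2 without pairing passed Jun as well. Fos stood lower in each treated library. Fosl1 (chr19:5447547-5455946, plus strand, 2033 exon bases) gave 1125, 1179 and 1064 normalised counts in untreated replicates 2, 3 and 4 and 3117, 2432 and 3192 in the treated ones. All 3 treated values lay above all untreated ones, which differed among themselves by a CV of 5.12%. The mean rose from 1123 ± 57.5 to 2914 ± 419 (SD, n = 3), a 2.58-fold difference. The log2 fold change was 1.37 (SE 0.14, limma adjusted p = 0.0190 over all genes tested, and 6.90e-05 with the replicate number as a block). Of the 13096 genes tested, 1.24% passed without the block and 37.2% with it. In bulk RNA, fewer cells that carry a transcript and less of it per cell cannot be told apart. The replicates were named biological by the submitters, but nothing states that they came from separate cultures or animals, so the p-values measure the spread between these libraries, which may be technical.

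Reads of Fosl1 are partly uncertain, because its 3′ end overlaps Ccdc85b on the other strand and 52.6% of the 50-base words of Fosl1 exons also occur there. The strand setting of the counting was not stated. Ccdc85b itself stood at 111 normalised counts in untreated and 78.2 in treated cells on average, against the 1123 and 2914 of Fosl1.

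The other Fos-type genes behaved differently from one another. Fos (chr12:85473890-85477273), the classical partner of Jun, gave 114, 252 and 123 in the untreated libraries and 43.3, 101 and 49.7 in the treated ones. The groups did not overlap, and in both the library of replicate 3 was the highest. Its log2 fold change was -1.33 (SE 0.44, limma adjusted p = 0.151), and the fall passed with the block (adjusted p = 0.00128). Fosb (chr7:19302696-19310051), which follows Fos after stimulation in many cells, was near 50 counts throughout, with 66.0, 59.9 and 44.4 untreated and 44.5, 63.1 and 36.1 treated. These groups overlapped, and its difference of -0.26 (SE 0.33) passed in neither fit (limma adjusted p = 0.670, and 0.465 with the block). Fosl2 (chr5:32135801-32157842) had the highest counts of the family but also the longest exons, 9680 bases. It gave 3957, 4142 and 4449 untreated and 4482, 5617 and 4830 treated, a narrow separation without overlap. The difference of 0.25 (SE 0.13) had a limma adjusted p of 0.295, and 0.0677 with the block.

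The 3 Jun-type genes were each about 2-fold higher on average in treated cells, with replicate 3 well behind the other replicates. Jun (chr4:95049034-95052222), the strongest activator of its family, gave 1993, 1717 and 1695 untreated and 4737, 2567 and 4065 treated. The groups did not overlap, and the log2 fold change of 1.03 (SE 0.23) had a limma adjusted p of 0.0838, or 0.000770 with the block. Junb (chr8:84974484-84978718), which often opposes Jun in the control of growth, gave 1331, 831 and 842 untreated and 2896, 994 and 2448 treated. Here treated replicate 3 fell among the untreated values, and the difference of 0.97 (SE 0.41) had a limma adjusted p of 0.220, or 0.00546 with the block. Jund (chr8:70698949-70700616) gave 329, 255 and 199 untreated and 889, 248 and 547 treated. Again treated replicate 3 lay among the untreated values, and the difference of 0.95 (SE 0.46) had a limma adjusted p of 0.262, or 0.0190 with the block. Jun overlaps the antisense gene Junos at 5.83% of its 50-base words, Junb overlaps Prdx2 at 5.76%, and Jund overlaps Gm11175 at 48.3%. Gm11175 itself averaged 0.547 normalised counts in untreated and 1.18 in treated cells, and Junos averaged 58.5 and 71.7. Prdx2 averaged 4794 in untreated and 6492 in treated cells, above the 1001 and 2112 of Junb. The part of Prdx2 in the Junb counts was not tested.

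**Figure D1:**
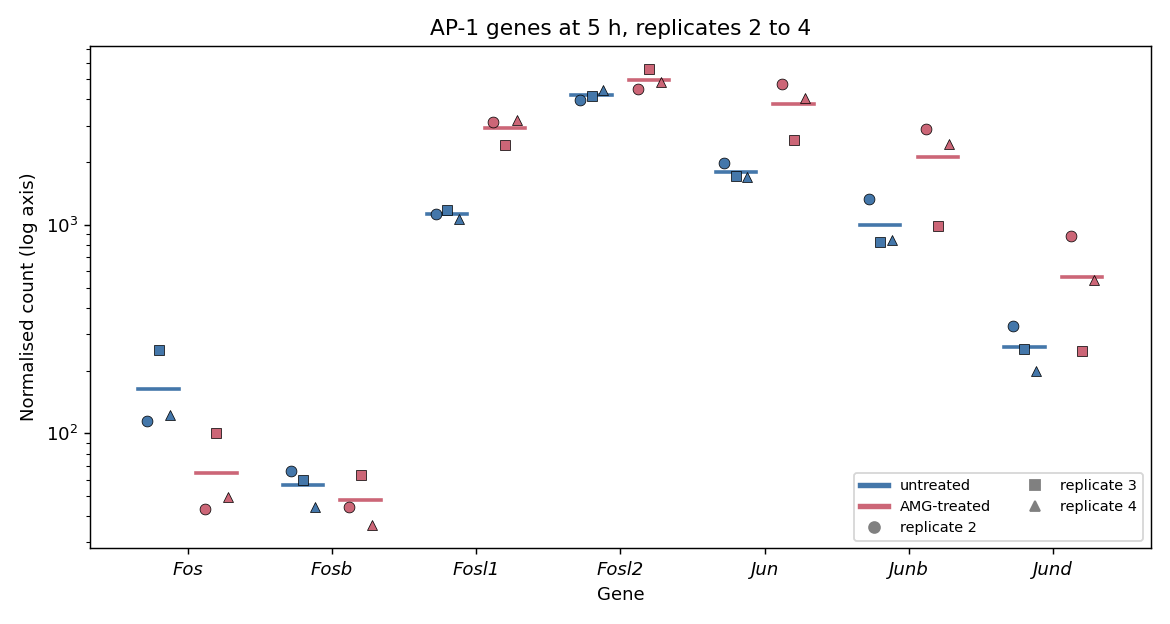
Normalised counts (log axis) of the 7 AP-1 genes at 5 h in replicates 2, 3 and 4, with untreated libraries in blue, AMG-treated libraries in red, marker shapes for the replicate number and lines at the group means. Treated and untreated points are separate for Fos (lower) and for Fosl1, Fosl2 and Jun (higher), and treated replicate 3 is the lowest treated point of Fosl1, Jun, Junb and Jund.

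Counted over the family, 1 of 7 members passed without the block and 5 passed with it, namely Fos (fall) and Fosl1, Jun, Junb and Jund (rise). With the block 17.9% of all genes tested passed as higher and 19.3% as lower. Groups did not overlap for 4 of 7 members, 3 higher and 1 lower, against 28.7% of all genes (15.1% higher, 13.6% lower). With all 4 replicates and the block, edgeR passed Fosl1 (adjusted p = 0.00819) and Jun (0.0438), but not Fos (0.0735), Junb (0.304) or Jund (0.309), and without pairing DESeq2 passed Fosl1 and Jun (adjusted p = 0.00222 for Jun). Of all genes, 3.63% passed in that edgeR fit and 5.21% in DESeq2. The number of calls moved with single libraries over all genes as well as in the family. Without AMG-treated 5h replicate 2 or 4 or Untreated 5h replicate 2 or 4, 0 members passed, in fits where 1 to 10 of all genes passed. Without Untreated 5h replicate 3, Fosl1 passed among 59 genes, and without AMG-treated 5h replicate 3, 5 members passed along with 16.8% of all genes. The log2 fold change of Fosl1 stayed between 1.29 and 1.49 whichever library was left out. The Jund difference was 0.52 without AMG-treated 5h replicate 2 and 1.44 without AMG-treated 5h replicate 3, and that of Junb was 1.45 without the latter. The log2 fold changes kept their sign for all 7 members in all 22 fits, although that of Fosl2 was 0.01 after scaling to the reference genes Gapdh, Actb and Rpl13a. That scaling moved the median of all genes from -0.02 to -0.26, so changes on that scale are to be read against it.

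The pair ratios show how far the 4 replicates at 5 h went together. Fosl1 had log2 ratios of treated to untreated of 1.60, 1.47, 1.04 and 1.58 in replicates 1 to 4. Jun had 2.06, 1.25, 0.58 and 1.26, and Fosl2 had 0.78, 0.18, 0.44 and 0.12. Fos had -0.32, -1.38, -1.31 and -1.29. These 4 genes had the same sign in all 4 pairs, 3 higher and 1 lower, where 15.7% and 16.0% of all genes did so. The replicate 1 value of Fos was within counting error of 0 (95% interval -0.73 to 0.10) and was 0.09 after the length correction. Junb split, with -0.33 in replicate 1 and 1.12, 0.26 and 1.54 in replicates 2 to 4, and so did Jund, with -0.14, 1.43, -0.04 and 1.45. Corrected for length, the replicate 1 values were 2.11 for Fosl1, 2.25 for Jun, 0.34 for Fosl2, 0.09 for Junb and 0.50 for Jund. Fosb had 0.19, -0.56, 0.08 and -0.29, with no common direction, and its replicate 1 value was -0.04 after the length correction.

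**Figure D2:**
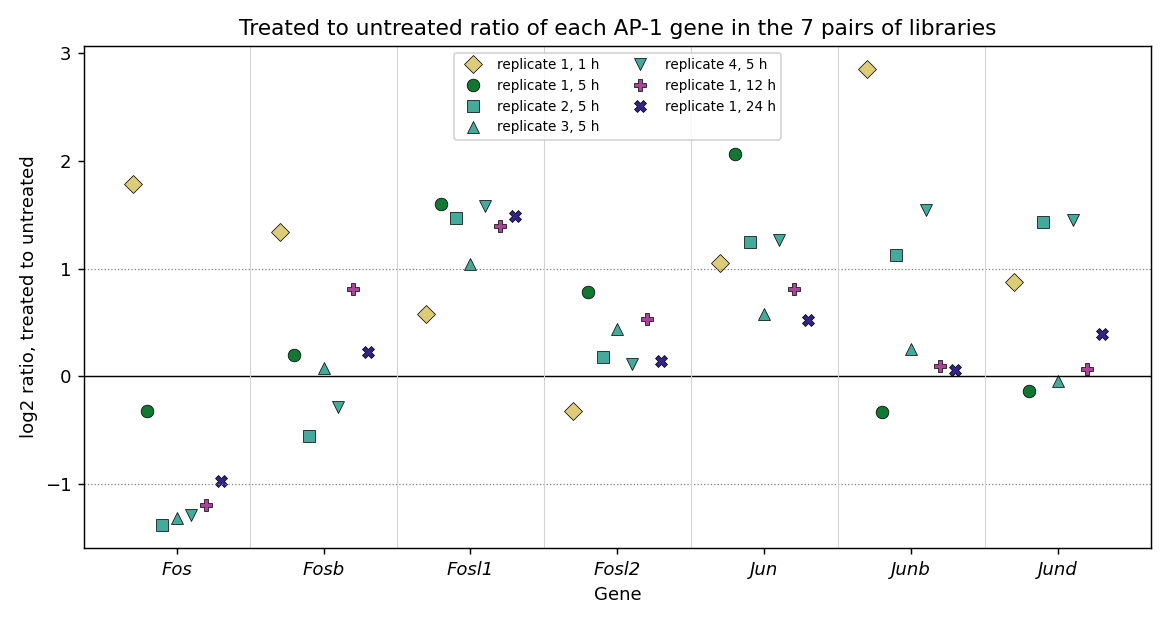
Log2 ratio of treated to untreated normalised counts (vertical axis) for each AP-1 gene in the 7 pairs of libraries, with replicate 1 at 1, 5, 12 and 24 h and replicates 2 to 4 at 5 h (dotted lines at 1 and -1). Fosl1 and Jun are above 0 in every pair (Fosl1 at 1 h changed sign in another setting), Junb is highest at 1 h (2.85) and lies between -0.33 and 1.54 in the other 6, and Fos is above 0 at 1 h only. The 5 h values of replicate 1 for Fos, Fosb, Junb and Jund changed sign in at least one other scaling or after the length correction.

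The time course of replicate 1 addressed when each member answered AMG, with 1 library per group and time and hence no test. At 1 h the largest difference was that of Junb, with 3667 normalised counts untreated and 26491 treated. Its log2 ratio of 2.85 (95% counting interval 2.80 to 2.90) lay above 99.4% of all genes and was 2.48 after the length correction. Fos gave 132 untreated and 457 treated at 1 h, a log2 ratio of 1.79 (1.5 to 2.09), or 1.43 corrected. Fosb gave 638 and 1610, a ratio of 1.33 (1.19 to 1.48), or 1.59 corrected, and Jun gave 2174 and 4500, a ratio of 1.05 (0.97 to 1.13). These 4 immediate early members were thus the ones beyond 1 on the log2 scale at 1 h, where 11.3% of all genes were above 1. Jun fell just short of 1 after the length correction, at 0.91. Jund had 0.88 (0.24 corrected), Fosl1 0.58 (0.10 corrected) and Fosl2 -0.32 (0.05 corrected). After scaling to the reference genes the median of all genes at 1 h was -0.87 instead of -0.06. On that scale Junb was at 2.04, Fos at 0.97, Fosb at 0.52 and Jun at 0.23, and Fosl2 was at -1.13.

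The early peaks were gone at 5 h. In treated cells, Junb gave 26491, 2500, 1938 and 2631 normalised counts at 1, 5, 12 and 24 h, against 3667, 3149, 1813 and 2530 in untreated cells. From 5 h on both courses lay close together, with log2 ratios of -0.33, 0.10 and 0.06. Treated Fosb gave 1610, 101, 121 and 72.9, and untreated Fosb 638, 88.5, 68.8 and 62.0. Both groups thus had far less Fosb at 5 h than at 1 h, with log2 ratios of -3.98 with AMG and -2.84 without. Treated Fos gave 457, 104, 56.2 and 112, whereas untreated Fos gave 132, 129, 130 and 220. Fos was therefore higher with AMG at 1 h and lower at 12 and 24 h, with log2 ratios of -1.19 (-1.65 to -0.77) and -0.97 (-1.29 to -0.67), and 6.9% and 8.05% of all genes were below -1 at these times.

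Fosl1 kept its difference from 5 to 24 h, whereas that of Jun was largest at 5 h and narrowed later. Treated Fosl1 gave 4587, 4537, 3404 and 3539 at 1, 5, 12 and 24 h, and untreated Fosl1 gave 3079, 1498, 1297 and 1266. The untreated level was thus below its 1 h value, with log2 ratios of -1.04, -1.25 and -1.28, while the treated level stayed within 0.43 of its own. The resulting log2 ratios were 1.60 (1.5 to 1.70), 1.39 (1.31 to 1.47) and 1.48 (1.40 to 1.57) at 5, 12 and 24 h, where 13.3%, 5.93% and 6.05% of all genes were above 1. Treated Jun gave 4500, 6524, 4908 and 4358, and untreated Jun 2174, 1564, 2801 and 3035. Its log2 ratio was highest at 5 h (2.06, 1.96 to 2.16, and 2.25 corrected) and was 0.81 and 0.52 at 12 and 24 h. Fosl2 gave 6215, 4922, 5081 and 5242 treated and 7756, 2862, 3524 and 4754 untreated, with a dip at 5 h in the untreated course. Corrected for length, the untreated Fosl2 values relative to 1 h were -0.83, -1.05 and -0.75 at 5, 12 and 24 h. The lowest of these was at 12 h, so the dip at 5 h depended on the length trend. Jund gave 3010, 1762, 1227 and 1482 treated and 1637, 1936, 1167 and 1131 untreated, and its ratios from 5 h on lay between -0.14 and 0.39.

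**Figure D3:**
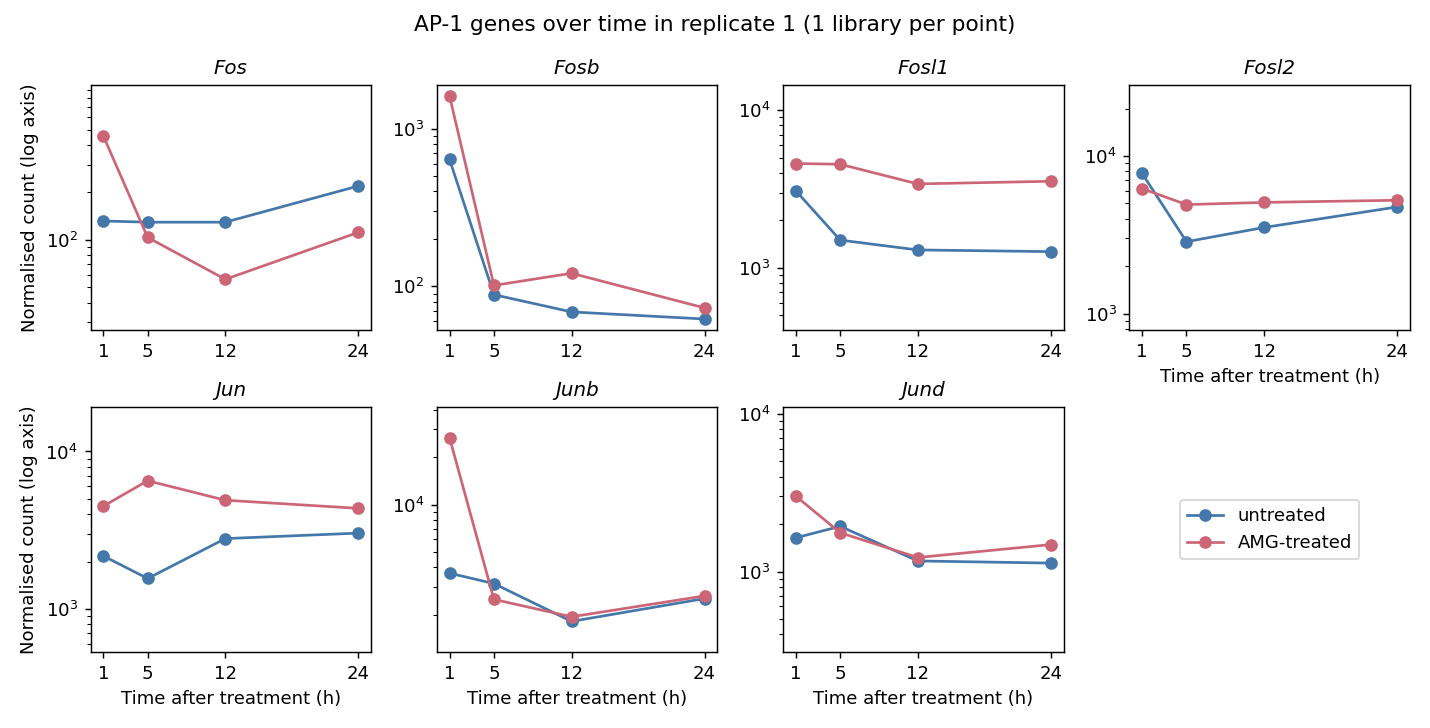
Normalised counts (log axis, its own range in each panel) of the 7 AP-1 genes in replicate 1 against time after treatment in hours, untreated in blue and AMG-treated in red, 1 library per point. Junb, Fos and Fosb have a treated peak at 1 h. The Fosl1 curves stay apart from 5 to 24 h, and the Jun curves come closer after 5 h.

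Of the 28 ratios of 7 members at 4 times, 9 were beyond 1 or -1, and all 9 kept their sign in the other scalings, pseudocounts and the length correction. Among all 28, 10 changed sign in at least one of them, those of Fos, Fosb, Junb and Jund at 5 h, Fosb, Fosl2, Junb and Jund at 24 h, and Fosl1 and Fosl2 at 1 h. The untreated courses also held changes of their own after the scratch. From 1 to 5 h untreated Fosb changed by -2.84, Fosl2 by -1.44 and Fosl1 by -1.04, where 16.8% of all genes were below -1. Untreated 5h replicate 1 was one of the 2 libraries with a raised ribosomal protein share, and its part in these values was not tested. Corrected for length, these changes were -2.49, -0.83 and -1.73. At 12 h the untreated values relative to 1 h were -3.19, -1.14 and -1.25, and Junb was at -1.02, so that 4 of 7 members were below -1 (7.01% of all genes). At 24 h Fosb and Fosl1 were still below -1, which held for 7.62% of all genes. In treated cells Fos, Fosb and Junb were below -1 relative to 1 h at all 3 later times, joined by Jund at 12 and 24 h, where 10.3%, 17.6% and 16.7% of all genes were below -1. After the length correction Jund was at -0.65 and -0.53 at these times.

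To compare levels between genes, counts were divided by exon length in kilobases. In untreated cells at 5 h (replicates 2 to 4) the order per kb was Jun (565 ± 52.2), Fosl1 (552 ± 28.3), Junb (435 ± 124), Fosl2 (432 ± 25.7), Jund (156 ± 39.1), Fos (69.3 ± 32.8) and Fosb (9.09 ± 1.79; SD, n = 3). The ranges of neighbours overlapped among the first 4 and were separate from Fosl2 downwards. With AMG the order per kb was Fosl1 (1433 ± 206), Jun (1188 ± 348), Junb (918 ± 432), Fosl2 (514 ± 60.1), Jund (336 ± 193), Fos (27.5 ± 13.4) and Fosb (7.68 ± 2.21), and the first 5 overlapped with their neighbours. The family total per kb went from 2219 ± 185 to 4425 ± 1082. The groups of 3 did not overlap (exact permutation test, two-sided, p = 0.10, the smallest that 3 against 3 allows).

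As shares of that total, Fosl1 took 22.9%, 26.6% and 25.4% in untreated replicates 2, 3 and 4 and 28.9%, 37.2% and 33.0% in the treated ones. The mean share was 25.0% ± 1.94 untreated and 33.0% ± 4.14 treated (SD, n = 3). Fos took 2.01%, 4.92% and 2.54% untreated and 0.347%, 1.33% and 0.444% treated. The groups did not overlap for the shares of Fosl1, Fos and Fosb, each with an exact permutation p of 0.10 (two-sided, 0.267 after Benjamini-Hochberg over 8 shares). With replicate 1 added, 4 against 4, the exact permutation p of these 3 shares was 0.0286 (adjusted 0.0762), which is again the smallest possible. Both tests ignore the replicate number. With signs flipped within the pairs of replicates 2 to 4, the p of each of these 3 shares was 0.25 (adjusted 0.40), the smallest that this test allows. The shares of Jun (25.4% ± 0.622 and 26.6% ± 1.5), Junb (19.4% ± 3.91 and 19.8% ± 5.59) and Jund (6.98% ± 1.17 and 7.19% ± 2.74) overlapped between the groups. Together the 4 Fos-type genes made up 48.2% ± 5.21 untreated and 46.4% ± 9.59 treated (exact permutation p = 0.90, n = 3), so that within this class Fosl1 took a larger and Fos, Fosb and Fosl2 (19.6% ± 2.72 and 12.4% ± 4.95) a smaller part on average. Shares were not corrected for the trend of the ratios with exon length. In limma that correction moved the log2 fold change of Fosl1 from 1.37 to 1.18 and that of Fosl2 from 0.25 to 0.47. It moved Fos from -1.33 to -1.48 and Fosb from -0.26 to -0.14.

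The composition differed most at 1 h. Junb made up 63.7% of the family per kb in the treated library at 1 h and 27.8% in the untreated one, and the family total per kb was 18079 against 5731. At 12 and 24 h Fosl1 made up 31.2% and 30.3% of the treated libraries and 18.6% and 15.8% of the untreated ones. Untreated 5h replicate 1 departed from the other untreated libraries at 5 h, with 28.2% for Jund, 33.2% for Junb and 11.9% for Jun. Per-kb levels depend on the gene model, and Jund has 1668 exon bases in GENCODE M21 but 2878 in RefSeq, with which its mean share was 3.97% untreated and 4.08% treated.

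**Figure D4:**
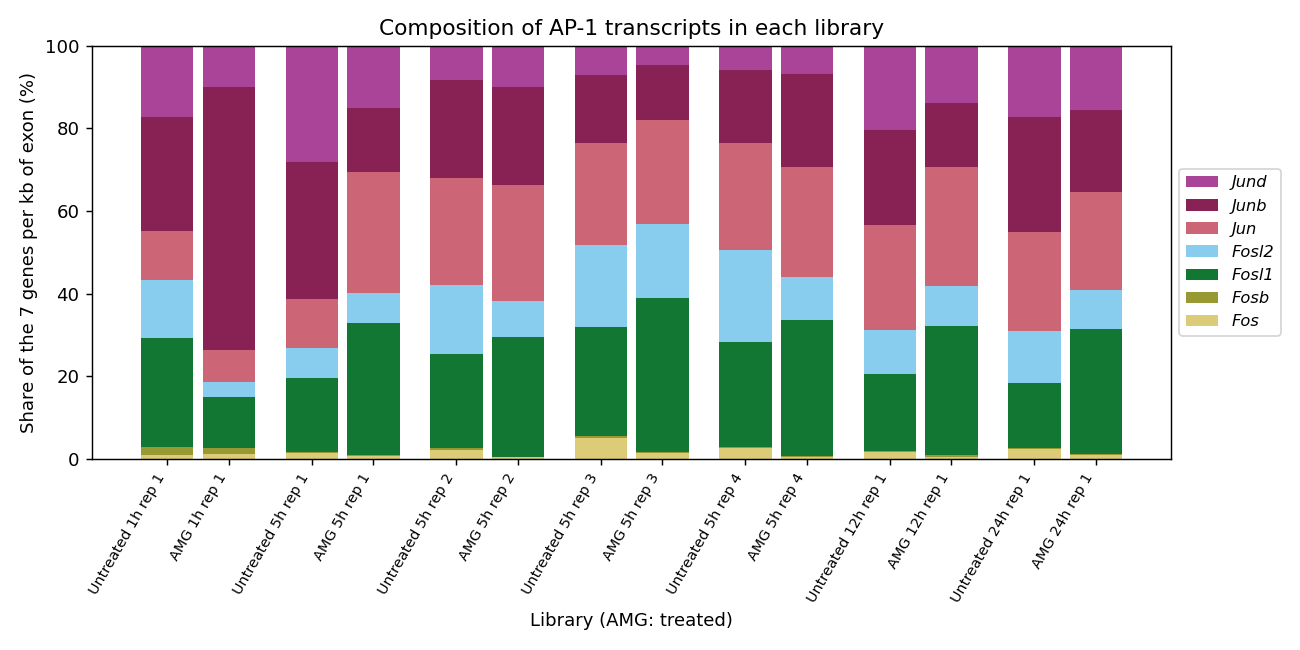
Share of each AP-1 gene in the family total per kilobase of exon (%, stacked to 100) in the 14 libraries, ordered by time and replicate with the untreated library to the left of the AMG-treated one. The Fosl1 band is wider in the treated library of every pair except the 1 h pair, where Junb takes 63.7% of the treated bar.

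Genes around the family were read from 5 lists. Over all genes tested, 1.24% passed in limma without the block and 37.2% with it. The dimer partners are bZIP proteins (Atf, Maf, Batf, Jdp2 and Nfe2 genes) that can pair with Fos or Jun. Of 16, 13 were tested and 3 passed in limma without the block (2 higher, 1 lower) and 8 with it. Their median log2 fold change was 0.24 beside -0.02 for all genes tested, and 0.00 after scaling to the reference genes. Mafg, a small Maf protein, rose from 1092 ± 124 to 2653 ± 413 normalised counts (log2 fold change 1.27). Nfe2l2, which encodes the oxidative stress factor NRF2, rose from 2251 ± 203 to 4366 ± 288 (0.96). Maf fell from 1281 ± 425 to 248 ± 35.4 (-2.31). The limma adjusted p of these 3 lay between 0.0196 and 0.0226.

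Genes that act on AP-1 itself were read from the next lists. Over all genes tested, 1.24% passed in limma without the block, 1.17% with edgeR, 5.21% with DESeq2 and 37.2% with the block. Of the 18 kinases and factors upstream, among them the ERK gene Mapk3, the JNK genes Mapk8 and Mapk9 and Srf, 0 passed in limma without the block, 0 with edgeR and 0 with DESeq2, and 8 passed with the block (5 higher, 3 lower). Their median was 0.14, but -0.10 after scaling to the reference genes. The largest difference was that of Elk4, a ternary complex factor, with 0.67 (limma adjusted p = 0.166, and 0.0240 with the block). Of the 11 genes for turnover of AP-1 proteins and mRNAs, 0 passed without the block, 0 with edgeR and 2 with DESeq2, and 6 passed with the block, at a median of 0.13. The largest difference was that of Zfp36l2, an mRNA decay factor, with 0.76 (limma adjusted p = 0.121, and 0.00787 with the block).

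Genes that textbooks list as AP-1 targets were higher with AMG in most cases. Of 30 tested, 16 passed in limma and all 16 were higher, where 0.97% of all genes passed as higher. With the block 25 were higher and 1 lower, where 17.9% and 19.3% of all genes were. The median log2 fold change was 2.49, also with Csf2 at its bound, beside -0.02 for all genes. Among them Mmp3, Mmp13, Ets1, Vegfa, Ptgs2, Lif and Hmox1 had been named in the study from these same samples, so their direction is not independent evidence. Csf2, the cytokine GM-CSF, had 0 reads in the untreated libraries and 189 ± 150 normalised counts in the treated ones, which is at least 62.2-fold above a floor of 3 reads per library. Il6 rose from 9.63 ± 13.4 to 671 ± 448 (log2 fold change 6.72) and Lif, another cytokine of the same family, from 145 ± 30.1 to 16960 ± 9204 (6.69). The chemokine gene Ccl2 rose by 5.07 on the log2 scale. Of the metalloproteinase genes, which encode enzymes that cut matrix, Mmp9 rose by 5.47, Mmp3 by 4.49, Mmp1b by 4.32 and Mmp10 by 4.27. The limma adjusted p of these 8 genes lay between 0.00567 and 0.0414. Areg, an EGF receptor ligand, had the largest difference that did not pass, from 2.11 ± 2.09 to 70.4 ± 46.6 (4.53, limma adjusted p = 0.0628, and 0.00189 with the block). Ccnd1, Itga5 and Spp1 passed in neither fit, and Fn1 fell with the block (-0.51, adjusted p = 0.0189). Without AMG-treated 5h replicate 2, 0 of the 30 passed, at a median of 2.52, where 1 gene passed in all. Without AMG-treated 5h replicate 3, 23 passed, at a median of 2.86, where 16.8% of all genes did.

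**Figure D5:**
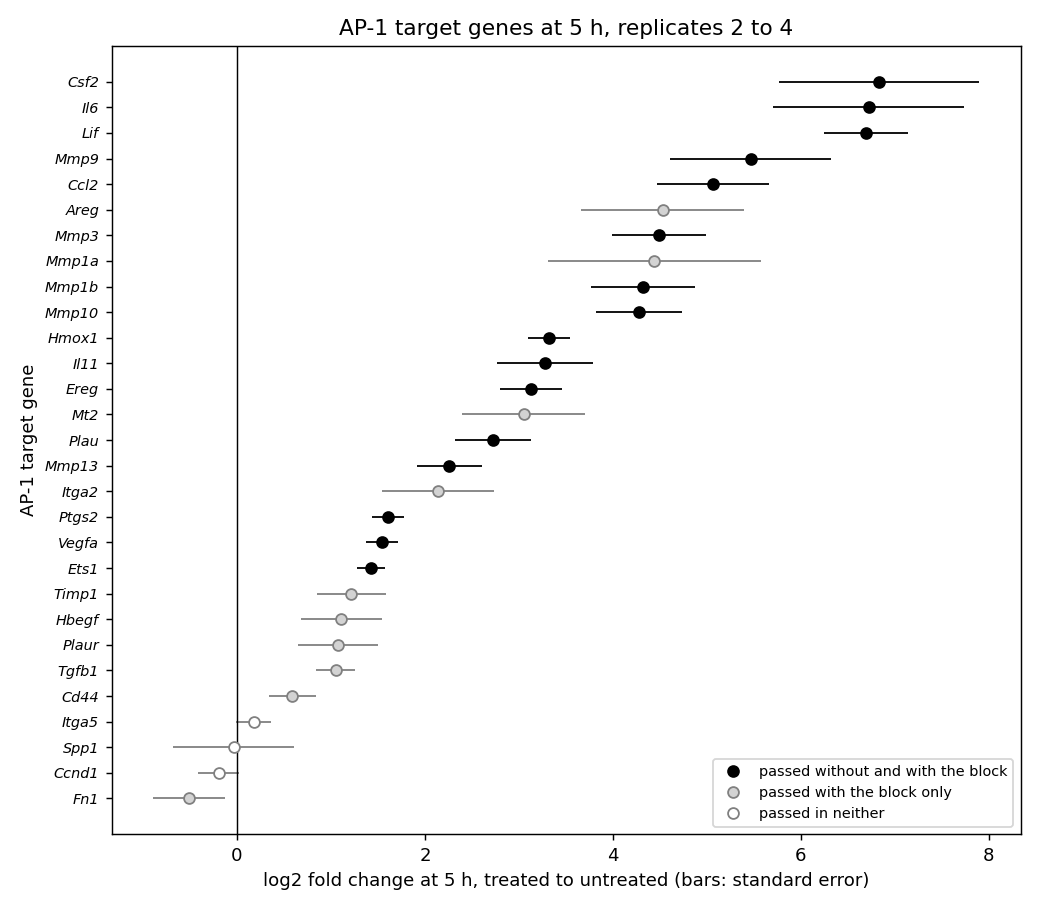
Log2 fold change of treated against untreated at 5 h (horizontal axis, bars are standard errors, replicates 2 to 4) for AP-1 target genes; black points passed in limma without and with the block, light grey points with the block only and white points in neither. The 16 black points are all to the right of 0, and the value of Csf2 depends on the pseudocount because its untreated libraries are at 0.

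In replicate 1 the targets had medians of 1.48, 2.27, 2.89 and 2.11 at 1, 5, 12 and 24 h, with 19, 24, 23 and 22 of 30 above 1. Over all genes, 11.3%, 13.3%, 5.93% and 6.05% were above 1 at these times. Other immediate early genes had a median of 1.58 at 1 h, with 13 of 17 above 1, and medians of 0.46, 0.16 and -0.04 at the later times. Before any length correction they therefore shared the early difference of Junb, Fos and Fosb. The replicate 1 medians of both lists were not corrected for length. After scaling to the reference genes the median of all genes at 1 h was -0.87 instead of -0.06. At 5 h in replicates 2 to 4, 16 of these 17 were tested and 3 passed in limma, all higher, and 6 passed with the block. Of all genes tested, 1.24% and 37.2% did so. Ier3 rose by 3.32, Ier5 by 1.53 and Myc, a driver of growth, by 0.78. The largest difference that did not pass was that of Nr4a3, with 1.35 (limma adjusted p = 0.0865, and 0.00732 with the block).

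Members were also compared with each other and with all other genes by their pattern over libraries, as Pearson r of log2 values over the 8 libraries of replicate 1 and the 6 of replicates 2 to 4. Libraries share treatment, replicate and length balance, so these values are descriptions. Junb and Jund went together in both tables (r = 0.88 and 0.97), as did Fosl1 and Jun (0.70 and 0.94). Fos and Junb went together over the time course (0.82) but apart at 5 h (-0.91). Among 12837 other genes the closest to Fosl1 were Mina (0.99 and 0.98), Abhd17c (0.97 and 0.97) and Smox, which encodes spermine oxidase (0.97 and 0.98). Closest to Jun were Fbrsl1, Tnip1 and Gbp5, with r of 0.93 to 0.99. Closest to Junb were Socs1, an inhibitor of cytokine signalling (0.97 and 0.97), the chaperone gene Dnajb1 and Ubxn4. Closest to Jund were BC051077, A330069E16Rik and Prmt6, to Fos Clasp2, Ugp2 and Arl8b, to Fosb Rest, Acsl3 and Suco, and to Fosl2 Sestd1, Ets2 and Mfsd2a.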

How the data were processed

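Poly(A) RNA was made into stranded libraries by the authors, who read 50 bases from one end, filtered adapters, aligned to mm10 with TopHat 2.0.13, kept unique alignments and counted reads per gene with HTSeq 0.5.3p3. The annotation release and the strand setting are not given in the sources used here. The values deposited by the authors are a normalised signal per gene, that is counts divided by a DESeq size factor, in 2 tables of 43472 genes (8 and 6 libraries). Whole reads were recovered for 100% of values within a tolerance of 0.1, and 0 rows named no gene.

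From these values, limma 3.58.1 in R 4.3.3 (lmFit, eBayes with a trend) compared 3 treated with 3 untreated libraries at 5 h on log2(normalised count + 1), for 13096 genes with a mean of at least 10. Fold changes on this scale understate the change of low genes. Genes passed at a Benjamini-Hochberg adjusted p under 0.05. Replicate numbers come from the sample titles. Same-numbered libraries deviated together from their group means (r = 0.65, 0.76 and 0.70, against -0.59 to 0.12 for other numbers), so a blocked fit, in which the replicate number is a factor, stands beside the main one. Replicate 1 has log2 ratios with exact counting intervals, which cover counting error only. The length correction subtracts a lowess (span 0.3) of each library against exon length. Exon lengths come from GENCODE M21. Shares were compared with exact permutation tests, and also by flipping signs within pairs. The alternatives were edgeR 4.0.16 and DESeq2 1.42.0 on recovered reads, other scalings, filters and pseudocounts, and leaving out each library. The limma step was tested on simulated data.

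The members and lists were chosen with earlier results of these data known. All 7 members were named. Of each list the genes that passed without the block were named, up to 8 by size, with the largest difference that did not pass, and for likeness the 3 genes with the highest lower r over both tables. Ccnd1, Itga5, Spp1 and Fn1 were named after their values were seen. Some list genes are not reported here by name, though they count in the totals.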

Additional observations from a re-analysis of the deposited data

Results flagged for a closer look

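Among 16 groups of 4 libraries at 5 h that were searched for a share far from the rest, 2 stood out, both in Untreated 5h replicate 1, and chance marks about 1 in 20 such groups. Jun took 11.9% of the family per kb there, against 24.7% to 25.8% in the other untreated libraries. Jund took 28.2%, against 5.80% to 8.14%. This library had 6.91% of its reads in ribosomal protein genes.

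For 2 members the treated to untreated difference at 1 h had the opposite sign of all 4 pairs at 5 h. The log2 ratio of Fos was 1.79 in the 1 h pair and between -1.38 and -0.32 in the 5 h pairs. Fosl2 had -0.32 at 1 h and 0.12 to 0.78 at 5 h. With 1 pair at 1 h these differences between times were not tested, and after the length correction the Fosl2 value at 1 h was 0.05 and the Fos value of replicate 1 at 5 h was 0.09.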

How the results depend on the processing

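The number of members that passed at 5 h was 1 in limma (1.24% of all genes) and 5 with the replicate block (37.2%). It was 6 with length correction and block (34.2%), 5 in edgeR with the block (37.3%) and 2 in DESeq2 (5.21%). In edgeR on the 4 replicates together it was 2, either with the block (3.63%) or with a batch term for the table (1.74%). Leaving out 1 library gave 0 to 5, where 0.00766% to 16.8% of all genes passed. With the block, 8 dimer partners, 8 upstream genes, 6 turnover genes, 26 targets and 6 immediate early genes passed, where 37.2% of all genes did. Leaving out 1 library gave 0 to 6 partners, 0 to 4 upstream genes, 0 to 3 turnover genes, 0 to 23 targets and 0 to 5 immediate early genes. The share of all genes that passed in those fits likewise ran from 0.00766% to 16.8%. DESeq2 gave 5, 0, 2, 23 and 5 in that order of lists, where 5.21% of all genes passed. The length correction gave 1 turnover gene, where 1.33% of all genes passed. Without a length correction the block changed no call of Fosb, Fosl1 or Fosl2. With one, the limma adjusted p of Fosl2 was 0.0715, or 0.00178 when blocked.

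Members beyond 1 at 1 h numbered 2 instead of 4 after scaling to the reference genes, Junb above 1 and Fosl2 below -1. At 24 h they numbered 2 instead of 1 after that scaling, after scaling to total reads and after the length correction. After scaling to the reference genes the median of all genes was -0.87, 0.66, 0.36 and -0.41 at 1, 5, 12 and 24 h, and -0.27 at 1 h after scaling to total reads, beside -0.06, -0.01, -0.01 and 0.02 as reported.

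The Fos-type share, treated minus untreated, was -1.79 percentage points, but -8.03 from counts not divided by length, 1.99 with all 4 replicates and -7.07 to 2.31 when 1 library was left out (positive only without AMG-treated 5h replicate 2). That of Junb was 0.42, but -4.10 with all 4 replicates and -1.53 to 3.63 when 1 library was left out, with negative values of -1.53, -0.99, -0.82 and -0.40. That of Jund was 0.20, but -3.11 with all 4 replicates and -1.23 to 1.49 when 1 library was left out, with negative values of -1.23 and -0.39. The RefSeq lengths, an alternative chosen after seeing the data, reversed no share. The causes were not tested. Fos and Fosb, at 32 reads or more per library, have the largest counting error. In limma without the block, the standard errors at 5 h were largest for Jund (0.46), Fos (0.44) and Junb (0.41).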
